A study of Mus musculus with 42 samples.

Results

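The antioxidant and glutathione enzymes are 62 of the 13809 genes measured in the tibialis anterior (TA) muscle of mice. They were picked by a rule on gene symbols: the glutathione S-transferases of the alpha, mu, omega, pi and theta classes, the glutathione peroxidases, the peroxiredoxins, the genes whose symbol starts with Txn or Glrx, the superoxide dismutases, and a short list of named genes around Nfe2l2. Genes named as pseudogenes were left out, and Slc7a11, which the rule also names, was not analysed here.

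Muscle makes superoxide and hydrogen peroxide during contraction and also when it is unused. Superoxide dismutases turn superoxide into hydrogen peroxide, and catalase, glutathione peroxidases and peroxiredoxins remove the peroxide. Glutathione and thioredoxin give the electrons and are reduced again with NADPH, much of which comes from the pentose phosphate pathway. Nfe2l2 (NRF2) is the transcription factor best known for switching on many of these genes, and Keap1 is the adaptor that marks it for degradation. Sestrins, the proteins varied in the study, have been linked to both antioxidant defence and mTORC1 control.

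The study asked how sestrins affect muscle loss in disuse. RNA was sequenced from the TA muscle of male C57BL/6J mice at 4 months of age, in 42 libraries of 11 groups and 2 sets. Set 1 held WT, Sesn1SkM-Tg and Sesn2SkM-Tg muscle, basal or immobilized, and set 2 held WT muscle, basal, immobilized or denervated, and Sesn1KO muscle, basal or immobilized. Immobilized WT muscle in set 1 and immobilized Sesn1SkM-Tg muscle had 3 libraries each, and every other group had 4. Sesn1SkM-Tg mice carry human Sesn1 under the muscle creatine kinase (MCK) promoter, which is active in muscle fibers. Sesn2SkM-Tg mice were bred from a line with Sesn2 under a tetracycline-regulated promoter and a line with the MCK-tTA driver. The methods name non-transgenic littermates as controls, separately for each transgenic line. The labels of set 1 hold a single basal and a single immobilized WT group, which served for both lines here. They do not say of which line these mice were littermates. Sesn1KO mice carry a knockout of Sesn1 and came from another laboratory, and the methods call their controls normal WT mice without calling them littermates. The right hindlimb was held with plastic sticks and a bandage, or a piece of the sciatic nerve was cut out, and muscle was taken 3 days later. Basal mice had neither procedure. The labels do not say that the libraries of a group came from separate mice, so p-values measure the spread between these libraries.

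Of the members, 52 had a promoter window in the RefSeq table of assembly GRCm38.p6, running from 250 bases before to 50 bases after the gene start. Each window was searched on both strands for TGACNNNGC, the core of the antioxidant response element to which NRF2 binds with small MAF proteins. It was found in the windows of 13 members (25%), of 1709 of the 9957 genes of the table with a window (17.2%) and of 12.4% of all windows. A match is a description of the letters and not a site. The windows below belong to members that the results turn on: Gclm, Sod1, Srxn1 and Txn1 were higher in all 6 comparisons with basal muscle, Txnrd1 and Prdx1 were higher in denervated muscle, and Gstm5 was higher in basal Sesn2SkM-Tg muscle. They were also picked in part for holding the match, so they do not show how often members hold it. Hmox1, Gsr and Txnl1, higher in the same 6 comparisons, are not shown, and the windows of Nqo1, Gstp1 and Cat, higher in denervated muscle, hold no match. Of 3 windows of Txnrd1, 2 hold none. They lie at chr2:152105274-152105573 (plus strand, Srxn1), chr3:122245307-122245606 (plus strand, Gclm), chr16:90220512-90220811 (plus strand, Sod1), chr10:82858956-82859255 (plus strand, Txnrd1), chr4:116685349-116685648 (plus strand, Prdx1), chr3:107895604-107895903 (plus strand, Gstm5) and chr4:57956362-57956661 (minus strand, Txn1). Capitals mark the match, which reads GCNNNGTCA where it lies on the opposite strand, and the window of Txn1 holds none.
Srxn1: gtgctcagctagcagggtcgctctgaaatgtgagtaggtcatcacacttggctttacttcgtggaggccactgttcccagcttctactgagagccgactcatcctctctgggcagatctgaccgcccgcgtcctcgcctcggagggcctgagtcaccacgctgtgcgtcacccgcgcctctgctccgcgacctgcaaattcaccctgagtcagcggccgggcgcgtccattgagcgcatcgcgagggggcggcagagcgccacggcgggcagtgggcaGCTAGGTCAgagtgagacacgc
Gclm: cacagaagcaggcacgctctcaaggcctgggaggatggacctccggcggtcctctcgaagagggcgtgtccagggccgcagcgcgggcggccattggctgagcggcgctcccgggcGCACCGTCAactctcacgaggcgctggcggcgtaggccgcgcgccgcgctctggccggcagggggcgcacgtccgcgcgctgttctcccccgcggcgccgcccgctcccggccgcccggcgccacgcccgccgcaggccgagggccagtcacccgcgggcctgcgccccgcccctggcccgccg
Sod1: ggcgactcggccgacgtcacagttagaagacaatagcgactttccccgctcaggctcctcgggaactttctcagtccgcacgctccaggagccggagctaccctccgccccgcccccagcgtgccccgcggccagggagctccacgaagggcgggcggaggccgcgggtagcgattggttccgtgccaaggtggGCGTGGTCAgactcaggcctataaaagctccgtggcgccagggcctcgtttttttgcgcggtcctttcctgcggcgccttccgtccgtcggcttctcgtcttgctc
Txnrd1: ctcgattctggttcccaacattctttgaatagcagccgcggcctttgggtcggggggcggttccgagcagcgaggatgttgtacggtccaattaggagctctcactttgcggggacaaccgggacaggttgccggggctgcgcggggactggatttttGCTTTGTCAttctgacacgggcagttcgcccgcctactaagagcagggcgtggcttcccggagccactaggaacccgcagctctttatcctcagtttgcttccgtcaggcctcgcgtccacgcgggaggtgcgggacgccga
Prdx1: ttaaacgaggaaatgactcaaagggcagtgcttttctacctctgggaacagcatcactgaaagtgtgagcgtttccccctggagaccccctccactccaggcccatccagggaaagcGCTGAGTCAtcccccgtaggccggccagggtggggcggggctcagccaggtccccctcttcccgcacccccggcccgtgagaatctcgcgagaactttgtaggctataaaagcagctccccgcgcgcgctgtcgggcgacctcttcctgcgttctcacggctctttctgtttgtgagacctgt
Gstm5: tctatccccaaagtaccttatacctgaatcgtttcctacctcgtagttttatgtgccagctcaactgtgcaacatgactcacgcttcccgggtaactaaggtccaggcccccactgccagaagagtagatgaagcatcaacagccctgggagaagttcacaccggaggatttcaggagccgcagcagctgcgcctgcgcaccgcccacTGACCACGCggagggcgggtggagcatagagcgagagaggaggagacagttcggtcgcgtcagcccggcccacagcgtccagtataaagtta
Txn1: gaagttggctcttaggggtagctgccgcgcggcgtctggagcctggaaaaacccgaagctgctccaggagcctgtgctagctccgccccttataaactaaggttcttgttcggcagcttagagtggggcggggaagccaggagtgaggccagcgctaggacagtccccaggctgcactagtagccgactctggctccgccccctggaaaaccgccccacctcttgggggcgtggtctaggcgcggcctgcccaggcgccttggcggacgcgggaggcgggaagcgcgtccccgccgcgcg

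The table gave each gene a linear normalized count, whose scale is close to CPM. These summed to between 722430 and 1276769 in a library, with the lowest sums in denervated muscle, and libraries of a group correlated at 0.959 to 0.991 across genes. Markers of skeletal muscle fibers were high in every group. In basal muscle, Sesn1 was 41.6 to 77.6 in Sesn1SkM-Tg and 14.98 to 22.1 in WT libraries, Sesn2 was 6.54 to 13.03 in Sesn2SkM-Tg and 2.18 to 3.39 in WT libraries, and Sesn1 was 8.42 to 10.1 in Sesn1KO and 22.5 to 29.7 in WT libraries. In immobilized muscle the transgenic libraries stayed above the WT ones, but Sesn1 in Sesn1KO muscle (19.4 to 37.3) overlapped that of WT muscle (30.7 to 53.1). A gene was called higher or lower where the adjusted p of limma, with Benjamini-Hochberg adjustment over all genes tested, was under 0.05 and the log2 fold change was at least 0.25 in size. All adjusted p-values below are of this kind, and fold changes are on the scale of log2(value + 1), which understates those of genes with low values. All 62 members passed the filter on low values in both sets. Levels were not compared between the sets, whose values look adjusted to each other gene by gene.

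Basal muscle held these transcripts at very different levels. In the basal WT muscle of set 1, the highest levels per kb of exon were those of Txnip, the inhibitor of thioredoxin (246 ± 49.5 normalized counts per kb, mean ± SD, n = 4), Gpx4, which reduces lipid peroxides (144 ± 31.8), and Prdx3, the mitochondrial peroxiredoxin (127 ± 19.95). The libraries of Txnip lay above those of the other two, which overlapped each other. In set 2 the means were 129 ± 12.5 for Prdx3, 118 ± 1.57 for Gpx4, 114 ± 15.9 for Txnip and 100.1 ± 39.8 per kb for Gpx3, the secreted glutathione peroxidase. The libraries of Gpx3 (65.6 to 149.2) overlapped those of the other three, which overlapped each other, so which of these genes leads is not resolved in set 2. Hmox1 stood at 2.77 ± 0.588 and 2.97 ± 0.139 per kb, and Gsta1 and Gsta3 were lowest, between 0.104 and 0.261 per kb in the means of both sets. Of the 30-base stretches of Gsta1, 93% also occur in other genes, so its value is uncertain.

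**Figure D1:**
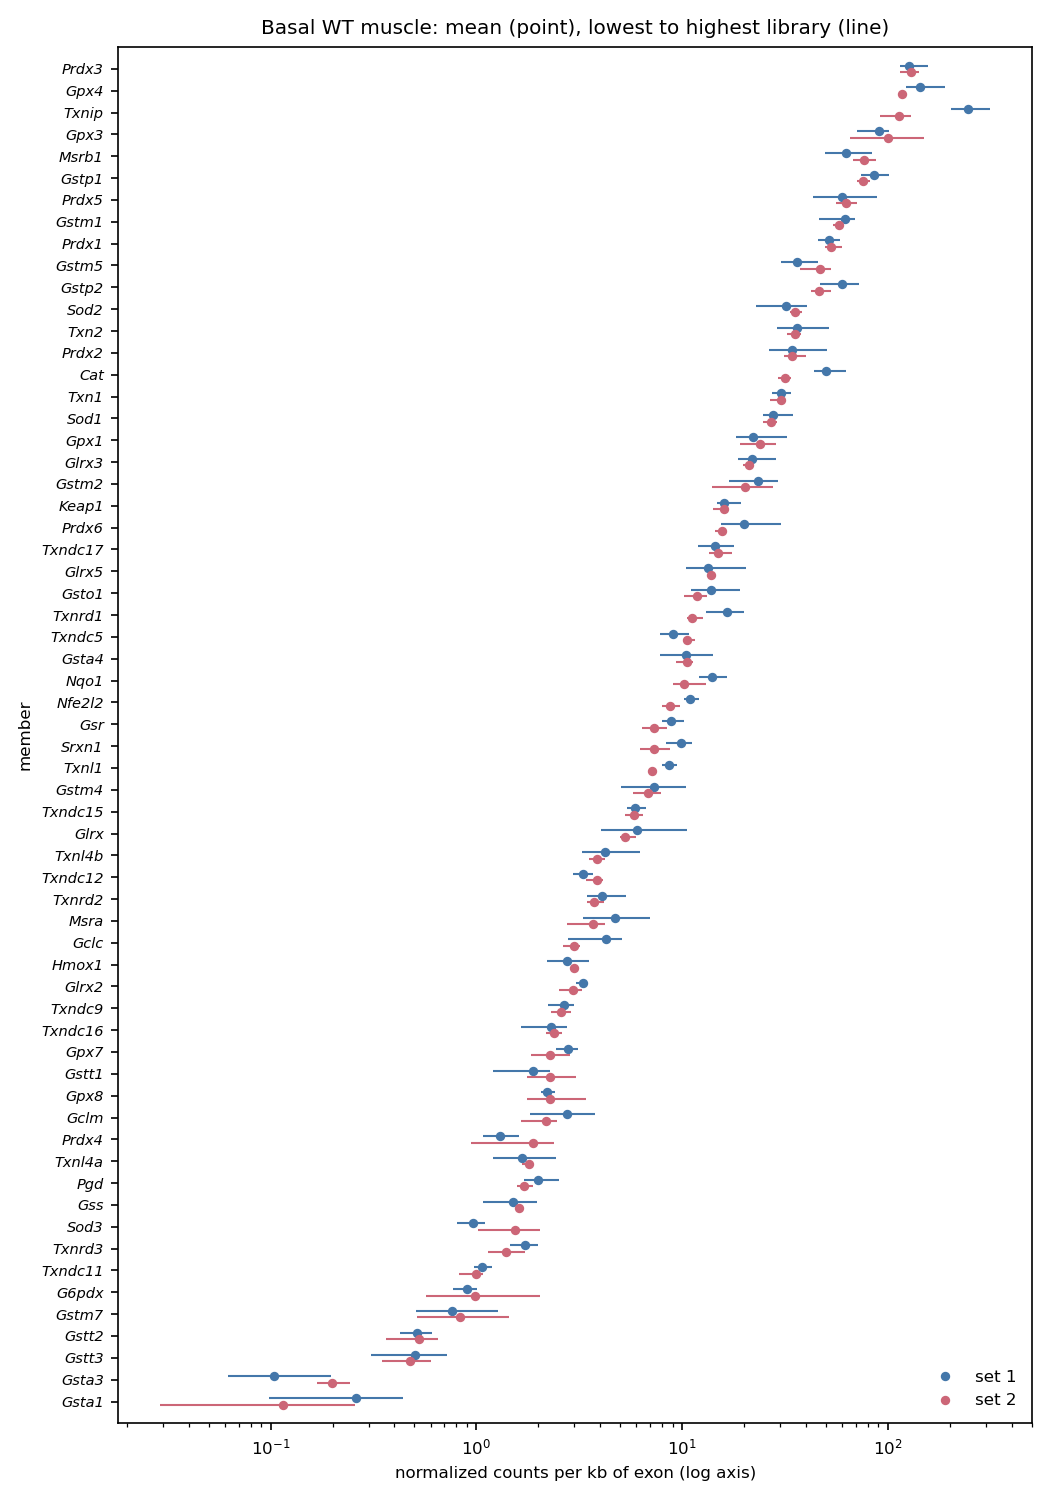
Level of each of the 62 members in basal WT muscle, in normalized counts per kb of exon on a log axis, with the mean of 4 libraries as a point and the lowest to the highest library as a line, in blue for set 1 and red for set 2. Levels ran from below 1 to 246 per kb, with Txnip, Gpx4 and Prdx3 at the top in set 1 and their lines overlapping that of Gpx3 in set 2. Exon length took in every annotated exon of a gene.

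Immobilization raised more members than it lowered in both sets. In the WT muscle of set 1, 18 of 62 members were higher and 3 were lower than in basal muscle, 33.9% of the members, where 29.3% of all genes were called. In the WT muscle of set 2, 17 were higher and 8 lower, 40.3% beside 33.9% of all genes. The share that was higher was 29% and 27.4% of the members, beside 14.9% and 16.2% of all genes. The median member changed by 0.04 and 0.05 (log2), and the median gene by 0.003 and -0.021.

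Denervation called more of them. Against the basal WT muscle of set 2, 27 members were higher and 12 lower, 62.9% beside 55.5% of all genes, with the higher ones at 43.5% beside 27.8% and the lower ones at 19.4% beside 27.7%. The median member was higher by 0.25 and the median gene lower by 0.027. Against immobilized muscle of the same set, 24 members were higher and 9 lower, 53.2% beside 38.9% of all genes, and the higher ones made up 38.7% beside 20.5%. These comparisons share the WT libraries of set 2.

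In the genetically modified muscles, immobilization called 18 members higher and 6 lower in Sesn1SkM-Tg (38.7% of members, 34.7% of all genes; 17 and 3 after quantile normalization), 13 and 6 in Sesn2SkM-Tg (30.6%, 30.7%) and 18 and 12 in Sesn1KO muscle (48.4%, 37.1%). Of all genes, 18.2%, 15% and 17.2% were higher in these comparisons, and of the members 29%, 21% and 29%. Over the 6 comparisons with basal muscle, 7 members were higher in every one: Hmox1, Gclm, Gsr, Sod1, Srxn1, Txn1 and Txnl1. Sod2 and Prdx3 were lower in every one. A further 10 members were called in none, and 5 were called in both directions (Gsta3, Gstm1, Gstp2, Gstt1 and Gstt3). The share of all genes with each of these patterns was not worked out, so the counts have no background beside them. The comparisons of immobilized and denervated WT muscle of set 2 also share their basal libraries.

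**Figure D2:**
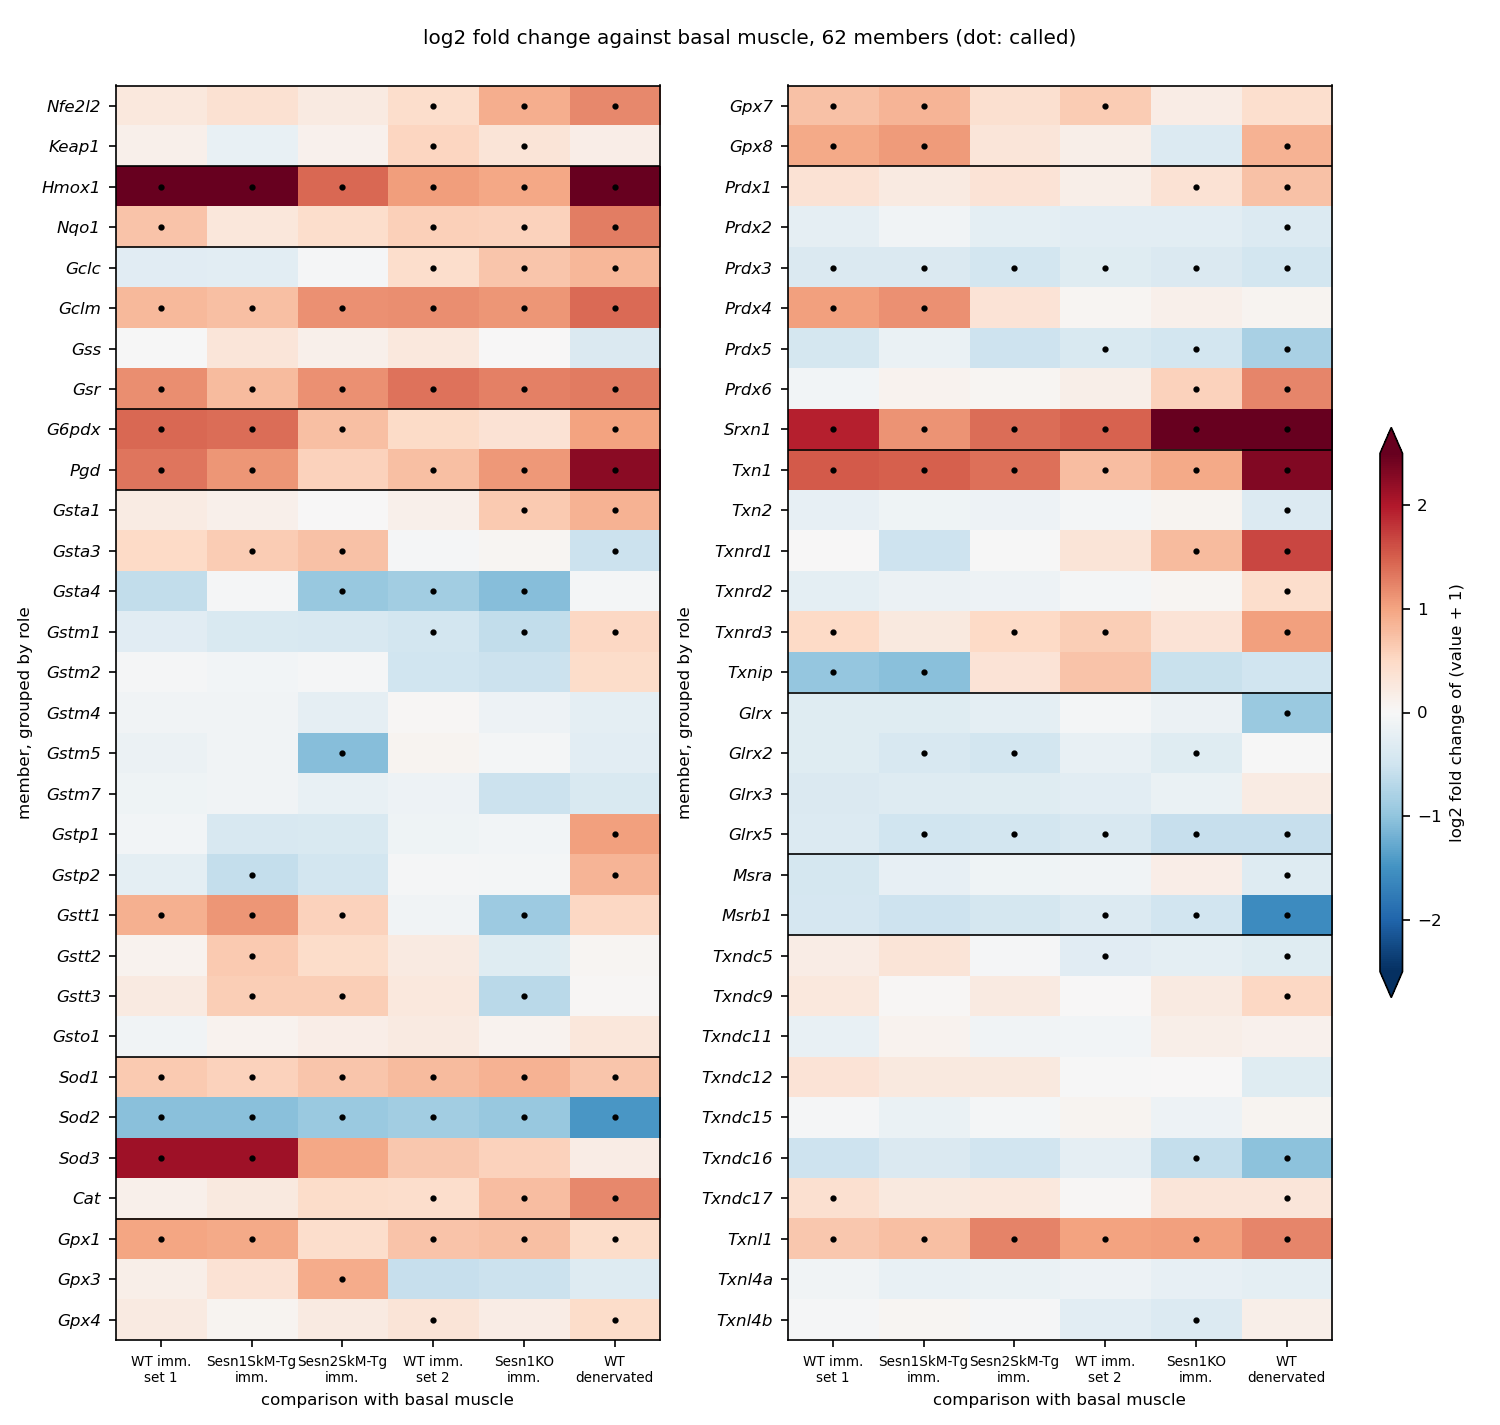
log2 fold change of (value + 1) of the 62 members against basal muscle of the same genotype and set, in color from blue (lower) to red (higher), with a dot where the member was called, 1 column for each of the 6 comparisons and lines between roles. The color ends at 2.5 in either direction, which Hmox1 and Srxn1 pass in some columns, and the rows of Hmox1, Srxn1, Txn1 and Txnl1 are red throughout while those of Sod2 and Prdx3 are blue throughout.

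Nfe2l2 itself was higher in set 2. It read 30.4, 30.7, 37.3 and 34.7 in basal WT muscle, 40.1, 42.5, 55.2 and 43.2 in immobilized muscle and 76.6, 78.98, 69.5 and 88.1 in denervated muscle. Every immobilized library was above every basal one, and every denervated library above every immobilized one. It rose by 0.43 ± 0.11 (SE, adjusted p = 0.00604) after immobilization and by 1.21 ± 0.11 (SE, adjusted p = 1.5e-08) after denervation. In immobilized Sesn1KO muscle the rise was 0.91 ± 0.11 (SE, adjusted p = 2.5e-06). In the WT muscle of set 1 it was not called (0.27 ± 0.17 SE, adjusted p = 0.237), where the immobilized libraries read 69.5, 37.3 and 48.1 and the lowest lay below all basal ones, and without that library, immobilized replicate 2, it was (0.47, adjusted p = 0.0468).

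Keap1 was higher in immobilized WT muscle of set 2 (0.54 ± 0.12 SE, adjusted p = 0.001) with 101, 139.7, 105 and 96.2 beside 79.3, 74.7, 66.3 and 78.7 in basal libraries, which did not overlap. In denervated muscle it read 75.9, 74.98, 90.5 and 96.4 and was not called against basal muscle (0.17 ± 0.12 SE, adjusted p = 0.224). It was lower there than in immobilized muscle (-0.38 ± 0.12 SE, adjusted p = 0.0136), a call lost without denervated replicate 2 (-0.32, adjusted p = 0.052) or immobilized replicate 2 (-0.26, adjusted p = 0.0655). In Sesn1KO muscle its rise of 0.32 was lost in 5 of 8 fits that left out a library, namely basal replicates 2, 3 and 4 and immobilized replicates 3 and 4 (0.25 to 0.33, adjusted p 0.0513 to 0.111). In set 1 immobilization did not give a call of Keap1 in any genotype. The change was 0.13 in WT, -0.18 in Sesn1SkM-Tg and 0.10 in Sesn2SkM-Tg muscle (adjusted p = 0.424, 0.217 and 0.491). After quantile normalization it was called in WT muscle of set 1 (0.28, adjusted p = 0.0479).

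Hmox1, heme oxygenase 1, which breaks down heme, had the largest rise in denervated muscle. In set 1 it read 6.15, 4.21, 5.17 and 3.87 in basal and 54.2, 16.8 and 39.95 in immobilized WT muscle, and 4.67, 7.15, 5.97 and 4.55 and 18.3, 52.9 and 53.8 in Sesn1SkM-Tg muscle. In both genotypes the immobilized libraries lay above all basal ones but differed among themselves by about 3-fold. The log2 fold change was 2.57 ± 0.44 in each, with adjusted p = 0.00029 and 0.00023. In Sesn2SkM-Tg muscle it read 4.58, 4.91, 4.82 and 11.1 and, immobilized, 12.8, 37.7, 8.21 and 24.1, so that the groups overlapped, with a log2 fold change of 1.43 ± 0.4 (SE, adjusted p = 0.0102). Without immobilized replicate 2 that rise was 1.08 (adjusted p = 0.0542).

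In set 2 Hmox1 read 4.99, 5.21, 5.06 and 5.53 in basal, 10.4, 12.8, 11.8 and 12.2 in immobilized and 60.9, 48.2, 63.7 and 70.9 in denervated WT muscle. The groups did not overlap, and the denervated libraries were far above the rest. The log2 fold change was 1.04 ± 0.36 (SE, adjusted p = 0.0278) after immobilization and 3.31 ± 0.36 (SE, adjusted p = 1e-07) after denervation. The immobilization call was lost in 6 of 8 fits without 1 library, those without basal replicates 1, 2 or 3 or immobilized replicates 2, 3 or 4, at 1.01 to 1.05 and adjusted p up to 0.0597. In Sesn1KO muscle the immobilized libraries were spread widely (5.92, 31.1, 3.44 and 12.04) around the basal ones (4.56, 3.78, 6.23 and 3.71). Its rise of 0.96 ± 0.36 (adjusted p = 0.0398) went to 0.43 (adjusted p = 0.185) without immobilized replicate 2, and was also lost without immobilized replicate 4 or basal replicates 1, 2 or 4 (0.86 to 0.96, adjusted p up to 0.0928).

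Macrophages are a known site of Hmox1 expression, and their markers moved with it in some groups. Of 9 symbols listed as macrophage markers 8 were in the table. Adgre1 was not, but Emr1, an older symbol of the same gene, was. Their summed level lay between 44.6 and 70.3 in basal and between 220.1 and 417 in immobilized WT muscle of set 1, where 8 of 8 were higher. In Sesn1SkM-Tg muscle it lay between 34.8 and 67.7 in basal and between 172 and 482 in immobilized libraries, and in Sesn2SkM-Tg muscle between 52.8 and 64.2 and between 94.6 and 265. In set 2 the sum was 39.8 to 158 in basal, 126 to 243 in immobilized and 52.9 to 135 in denervated WT muscle, and 60.9 to 86.98 in basal and 65.6 to 382 in immobilized Sesn1KO muscle. In bulk muscle, fewer cells of a type and less RNA per cell cannot be told apart, and the part of macrophages in the Hmox1 values was not tested. The sum of the 8 muscle fiber markers was 123400 to 134000 in basal and 48550 to 63670 in denervated WT muscle, and that of 5 genes known to rise in denervated fibers was 10.2 to 16.6 and 327 to 521.

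Nqo1, a quinone reductase, was higher in immobilized WT muscle of set 1 (0.71 ± 0.19 SE, adjusted p = 0.00734) and set 2 (0.60 ± 0.22 SE, adjusted p = 0.0396). In denervated muscle it read 34.96, 32.6, 46.6 and 46.7, above all of the basal (14.5, 14.1, 14.9 and 20.4) and immobilized (25.6, 28.9, 23.01 and 20.8) libraries. The rise over basal muscle was 1.28 ± 0.22 (SE, adjusted p = 4.3e-05).

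**Figure D3:**
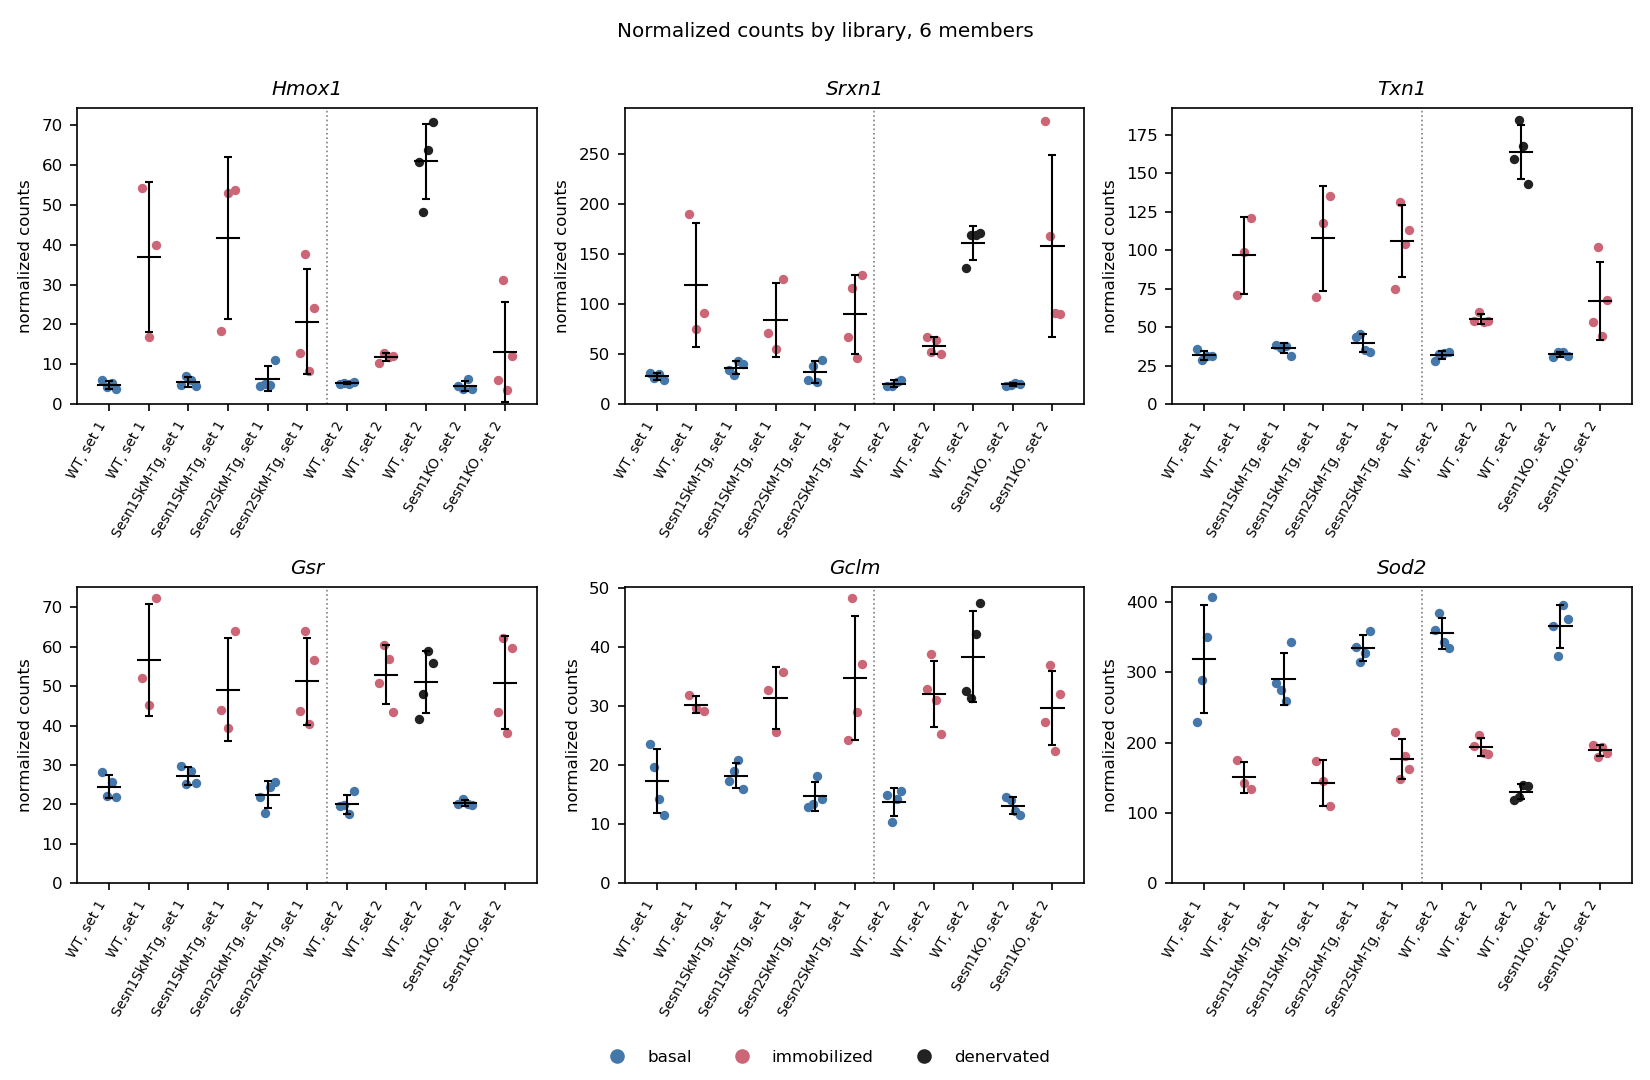
Normalized counts of Hmox1, Srxn1, Txn1, Gsr, Gclm and Sod2 in each library, with 1 point per library, the mean as a horizontal bar and the SD as an error bar, in blue for basal, red for immobilized and black for denervated muscle, and a dotted line between the sets. Denervated libraries of Hmox1 (48.2 to 70.9), Srxn1 (136 to 171) and Txn1 (143 to 185) lie above all other WT libraries of set 2, while those of Gsr and Gclm overlap the immobilized ones.

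Of the enzymes that make and recycle glutathione, Gclm and Gsr rose throughout and Gclc in part. Gclm, the modifier subunit of glutamate-cysteine ligase, which makes the first step of glutathione synthesis, was called higher in all 6 comparisons with basal muscle. It read 14.96, 10.3, 14.3 and 15.6 in basal, 32.9, 38.8, 31.03 and 25.4 in immobilized and 32.6, 31.4, 42.2 and 47.4 in denervated WT muscle. Basal libraries lay below all others, and the treated groups overlapped each other. The rise was 1.16 ± 0.16 (SE, adjusted p = 1.7e-05) and 1.41 ± 0.16 (SE, adjusted p = 3.3e-07), and denervated and immobilized muscle differed by 0.25 ± 0.16 (adjusted p = 0.244).

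Gclc, the catalytic subunit, was called higher in set 2 but not in set 1. In set 2 it rose by 0.43 ± 0.13 (SE, adjusted p = 0.015) after immobilization, by 0.83 ± 0.13 (SE, adjusted p = 1.5e-05) after denervation and by 0.70 ± 0.13 (SE, adjusted p = 0.00026) in Sesn1KO muscle. In the immobilized WT muscle of set 1 it was -0.28 ± 0.2 (adjusted p = 0.304). The sets were not compared directly. Gss, which makes the last step, was called in none of the 6 comparisons with basal muscle.

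Gsr, glutathione reductase, rose in every comparison with basal muscle. It read 19.5, 19.9, 17.5 and 23.4 in basal, 50.9, 60.5, 56.9 and 43.5 in immobilized and 41.6, 48.1, 58.8 and 55.8 in denervated WT muscle of set 2. Both treated groups were above every basal library. The rise was 1.35 ± 0.14 (SE, adjusted p = 4.8e-07) and 1.30 ± 0.14 (SE, adjusted p = 1.4e-07), and the difference between the treated groups was -0.05 ± 0.14 (adjusted p = 0.798). In set 1 it rose by 1.16 in WT, 0.80 in Sesn1SkM-Tg and 1.14 in Sesn2SkM-Tg muscle (adjusted p = 0.0002, 0.00282 and 5.4e-05).

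Both NADPH-making enzymes of the pentose phosphate pathway in the list were higher after denervation. Pgd, 6-phosphogluconate dehydrogenase, read 12.1, 11.2, 10.4 and 10.2 in basal, 17.7, 18.03, 20.6 and 20.1 in immobilized and 55.9, 62.9, 56.6 and 49.7 in denervated WT muscle. The groups were separate, in that order. It rose by 2.26 ± 0.14 (SE, adjusted p = 2.1e-11) after denervation, by 0.75 ± 0.14 (SE, adjusted p = 0.00024) after immobilization in set 2 and by 1.34 ± 0.3 (SE, adjusted p = 0.00231) in set 1. G6pdx, which opens the pathway, had low values, between 2.38 and 3.1 in basal and 7.02 and 13.3 in immobilized WT muscle of set 1, and rose there by 1.43 ± 0.25 (SE, adjusted p = 0.00032). In set 2 it rose after denervation (1.00 ± 0.24 SE, adjusted p = 0.00119) but was not called after immobilization (0.48 ± 0.24 SE, adjusted p = 0.13), where basal replicate 3 at 6.28 stood above all immobilized libraries. Of the 30-base stretches of G6pdx, 24.2% also occur in other genes, among them G6pd2.

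The 14 glutathione S-transferases, which join glutathione to reactive compounds, were called in both directions. Denervation called 4 higher and 1 lower, and immobilization of WT muscle called 1 higher in set 1 and 2 lower in set 2. These are 35.7%, 7.14% and 14.3% of the 14, beside 55.5%, 29.3% and 33.9% of all genes. Gstp1 read 242, 251, 253 and 220.1 in denervated muscle, above all basal (109, 119, 114 and 128) and immobilized libraries (111, 109, 115 and 103), which overlapped. It rose by 1.03 ± 0.08 (SE, adjusted p = 7.2e-10) after denervation, and after immobilization it was -0.10 ± 0.08 (adjusted p = 0.359). Gstp2 also rose after denervation (0.84 ± 0.15 SE, adjusted p = 7.2e-05), but 60.9% of its 30-base stretches occur elsewhere, chiefly in Gstp1, so that these genes may share reads. It fell by 0.60 ± 0.18 in immobilized Sesn1SkM-Tg muscle (adjusted p = 0.0161), a call lost without immobilized replicate 1 (-0.52, adjusted p = 0.0603).

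Gstm1 went in opposite directions in the treated WT muscles of set 2. It read 87.8, 80.2, 85.2 and 89.9 in basal, 65.9, 72.5, 57.8 and 54.7 in immobilized and 129.9, 119.9, 120.4 and 120.5 in denervated muscle. The immobilized libraries lay below and the denervated ones above all basal libraries. It fell by 0.45 ± 0.12 after immobilization (adjusted p = 0.00433), rose by 0.51 ± 0.12 (SE, adjusted p = 0.00076) after denervation, and differed by 0.96 ± 0.12 (SE, adjusted p = 1.2e-06) between the treated groups. Of its 30-base stretches, 29.4% occur in other genes. Gsta4, which acts on lipid peroxidation products, fell by 0.87 ± 0.16 in immobilized WT muscle of set 2 (adjusted p = 0.00021) and by 1.07 ± 0.16 in Sesn1KO muscle (adjusted p = 1.8e-05), and was -0.04 ± 0.16 after denervation (adjusted p = 0.828). In Sesn2SkM-Tg muscle it fell by 0.95 (adjusted p = 0.01), a call lost without immobilized replicate 2 (-0.69, adjusted p = 0.0543).

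Gstt1 was called higher in all immobilized groups of set 1 and lower in immobilized Sesn1KO muscle of set 2. It rose in immobilized WT (0.89 ± 0.21 SE, adjusted p = 0.00407), Sesn1SkM-Tg (1.10) and Sesn2SkM-Tg muscle (0.57) of set 1. In immobilized Sesn1KO muscle it fell by 0.90 ± 0.22 (adjusted p = 0.00315), from 4.7, 5.16, 3.84 and 5.84 to 2.68, 1.41, 1.43 and 3.44, with no overlap. In immobilized WT muscle of set 2 it was -0.09 ± 0.22, and the difference between the Sesn1KO and WT effects was not called. All of these values are under 10 normalized counts.

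The superoxide dismutases of the cytosol and the mitochondria went in opposite directions. Sod1, the cytosolic copper-zinc enzyme, was called higher in all 6 comparisons with basal muscle, by 0.58 to 0.86. Sod2, the manganese enzyme of the mitochondrial matrix, was lower in all of them. In set 2 Sod2 read 360.3, 385, 343 and 335 in basal, 196, 211, 185 and 183 in immobilized and 119, 122.6, 140.4 and 138 in denervated WT muscle. The groups were separate, with denervated muscle lowest. It fell by 0.87 ± 0.08 after immobilization (adjusted p = 7.3e-08) and by 1.45 ± 0.08 after denervation (adjusted p = 6.4e-12). In set 1 it fell by 1.05 ± 0.18 in WT, 1.04 ± 0.18 in Sesn1SkM-Tg and 0.93 ± 0.17 in Sesn2SkM-Tg muscle (adjusted p = 0.00032, 0.00028 and 0.00029). Of the 30-base stretches of Sod2, 27.1% also occur in other genes, chiefly in AC166110.4.

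Sod3, the secreted enzyme, was called higher only in immobilized WT and Sesn1SkM-Tg muscle of set 1. In Sesn2SkM-Tg muscle it was not called, with immobilized libraries at 5.19, 28.8, 7.16 and 9.16 beside basal ones at 4.82, 6.31, 3.9 and 4.015. In WT muscle of set 1 it read 3.01, 3.58, 3.75 and 4.12 in basal and 11.6, 18.5 and 30.9 in immobilized libraries, which did not overlap, and rose by 2.11 ± 0.47 (SE, adjusted p = 0.00227). In Sesn1SkM-Tg muscle it rose by 2.12 ± 0.47 (SE, adjusted p = 0.00174), and in set 2 it was 0.67 ± 0.49 after immobilization and 0.19 ± 0.49 after denervation (adjusted p = 0.307 and 0.757). Fibroblast markers (5 of 5 in the table) summed to 336 to 796 in basal and 757 to 1362 in immobilized WT muscle of set 1, and to 422 to 668 and 440.0 to 1332 in set 2. Their part in the Sod3 values was not tested. Catalase (Cat) was higher after denervation, with 187, 200.3, 197 and 184 above all basal libraries (83.3, 76.6, 88.7 and 82.1), and rose by 1.21 ± 0.17 (SE, adjusted p = 2.7e-06).

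Of the 5 glutathione peroxidases, none was called lower in any of the 6 comparisons with basal muscle. Gpx1, a cytosolic enzyme, rose by 0.99 ± 0.19 (SE, adjusted p = 0.0009) in immobilized WT muscle of set 1, by 0.71 ± 0.16 (SE, adjusted p = 0.00177) in set 2 and by 0.46 ± 0.16 (SE, adjusted p = 0.0189) after denervation. Gpx8, a peroxidase of the endoplasmic reticulum, read 5.49, 6.05, 3.97 and 4.91 in denervated and 2.29, 1.85, 3.56 and 1.88 in basal WT muscle and rose by 0.86 ± 0.22 (SE, adjusted p = 0.00222). Gpx4 rose by 0.45 ± 0.09 (SE, adjusted p = 0.00015) after denervation and by 0.33 ± 0.09 (SE, adjusted p = 0.00572) after immobilization in set 2. Of its 30-base stretches, 39.2% occur elsewhere, chiefly in Gpx4-ps2. Gpx3, the secreted plasma form, was not called in either treated WT muscle.

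The peroxiredoxins moved in both directions. Prdx3 and Prdx5, both found in mitochondria, fell after denervation by 0.46 ± 0.09 (adjusted p = 0.00011) and 0.82 ± 0.09 (adjusted p = 6.4e-08). Prdx1 and Prdx6 of the cytosol rose, by 0.73 ± 0.07 (SE, adjusted p = 2.1e-08) and 1.22 ± 0.1 (SE, adjusted p = 1.8e-09). Prdx6 read 77.5, 78.6, 74.01 and 69.7 in basal, 81.6, 86.4, 87.4 and 78.8 in immobilized and 184, 196, 169 and 158 in denervated muscle. The denervated libraries stood clear of the rest, and the immobilized ones, though all above the basal ones, differed by only 0.15 ± 0.1 (adjusted p = 0.247). Prdx2, also cytosolic, fell by 0.34 ± 0.11 after denervation (adjusted p = 0.0102). Prdx4, the peroxiredoxin of the endoplasmic reticulum, rose in the immobilized WT (1.02 ± 0.19 SE, adjusted p = 0.00072) and Sesn1SkM-Tg muscle (1.14 ± 0.19 SE, adjusted p = 0.00023) of set 1 alone. In WT muscle of set 1 the fall of Prdx3, by 0.36 ± 0.13 (adjusted p = 0.0429), was lost in 5 of 7 fits without 1 library, namely basal replicates 3 and 4 and each immobilized replicate (-0.39 to -0.26, adjusted p up to 0.135).

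Srxn1, sulfiredoxin, which restores over-oxidized peroxiredoxins, was among the most changed members. In set 2 it read 17.7, 17.7, 22.1 and 24.5 in basal, 67.1, 52.1, 64.4 and 50.5 in immobilized and 136, 169, 169 and 171 in denervated WT muscle. No libraries of these groups overlapped. It rose by 1.47 ± 0.24 (SE, adjusted p = 7.2e-05) after immobilization and by 2.92 ± 0.24 (SE, adjusted p = 1.8e-09) after denervation, and the treated groups differed by 1.45 ± 0.24 (SE, adjusted p = 5.6e-05). In set 1 the immobilized WT libraries read 189.9, 75.5 and 91.3, all above the basal ones (31.4, 25.6, 30.3 and 23.7), with replicate 1 far above the others, and the rise was 1.95 ± 0.34 (SE, adjusted p = 0.00037).

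In the thioredoxin system, the transcripts of the cytosolic proteins rose most in denervated muscle. Txn1, thioredoxin, read 28.2, 32.6, 33.2 and 33.7 in basal, 54.2, 60.02, 53.4 and 54 in immobilized and 159, 185, 168 and 143 in denervated WT muscle. The groups were separate in that order. It rose by 0.78 ± 0.16 (SE, adjusted p = 0.00073) after immobilization, by 2.32 ± 0.16 (SE, adjusted p = 1.4e-10) after denervation and by 1.54 ± 0.21 (SE, adjusted p = 4.3e-05) in immobilized WT muscle of set 1. Txnrd1, its cytosolic reductase, read 258, 312, 244 and 216 in denervated muscle beside 92.1, 106, 98.6 and 100.2 in immobilized and 77.4, 74.7, 76.5 and 89.7 in basal muscle. The rise was 1.67 ± 0.13 (SE, adjusted p = 5.4e-10) after denervation, and after immobilization it was 0.32 ± 0.13 (adjusted p = 0.055). Of the mitochondrial pair, Txn2 fell by 0.35 ± 0.1 (adjusted p = 0.00369) and Txnrd2 rose by 0.43 ± 0.1 (SE, adjusted p = 0.00127) in denervated muscle.

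Txnip, which binds thioredoxin and restrains glucose uptake, fell in the immobilized WT muscle of set 1 from 633, 692, 768 and 986 to 398, 422 and 354. The groups did not overlap, and the fall was by 0.96 ± 0.2 (adjusted p = 0.00171). In Sesn1SkM-Tg muscle it fell by 1.05 ± 0.2 (adjusted p = 0.00067), while in Sesn2SkM-Tg muscle it was 0.35 ± 0.19 (adjusted p = 0.173). In set 2 it was not called after either treatment, and its immobilized WT libraries ranged from 319 to 921. It was lower in denervated than in immobilized WT muscle, by 1.21 ± 0.3 (adjusted p = 0.00249), though these groups overlapped.

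Among glutaredoxins, which use glutathione to reduce mixed disulfides, none was called higher against basal muscle. Glrx read 13.6, 11.7, 15.7 and 19.4 in denervated and 27.3, 29.3, 27.3 and 32.8 in basal WT muscle, with no overlap, and fell by 0.92 ± 0.13 (adjusted p = 4.2e-06). Glrx5, which helps build iron-sulfur clusters in mitochondria, fell by 0.57 ± 0.08 (adjusted p = 4e-06) there. Both methionine sulfoxide reductases fell after denervation. Msrb1, a selenoprotein, read 30.6, 29.4, 32.8 and 34.1 in denervated beside 76.9, 87.7, 71.4 and 65.2 in immobilized and 85.4, 92.3, 97.7 and 109.9 in basal muscle. Denervated libraries lay far below both. It fell by 1.57 ± 0.13 (adjusted p = 3.4e-09), the largest fall of any member in that comparison.

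The other genes named for a thioredoxin fold moved in both directions. Txnl1, a thioredoxin-like protein bound to the proteasome, read 45.3, 48.7, 44.01 and 47.6 in basal, 89.4, 110.3, 91.9 and 84.2 in immobilized and 103, 116, 108 and 111 in denervated WT muscle. Both treated groups lay above every basal library. It rose by 1.00 ± 0.09 (SE, adjusted p = 1.1e-07) and 1.22 ± 0.09 (SE, adjusted p = 7.3e-10). Txndc16, a protein of the endoplasmic reticulum, fell by 1.02 ± 0.12 after denervation (adjusted p = 4.4e-07), with basal libraries at 25.3 to 30.4 and denervated ones at 11.3 to 14.6. Txnl4a, Txndc11, Txndc12 and Txndc15 were called in none of the 6 comparisons with basal muscle.

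A grouping of 7 members whose proteins act in mitochondria was made after their values were seen: Sod2, Prdx3, Prdx5, Txn2, Txnrd2, Glrx2 and Glrx5. So picked, it cannot test whether mitochondrial members fell, and it may not hold every member that acts there. Gpx1 and Gpx4, outside it, were called higher in 5 and 2 of the 6 comparisons with basal muscle. Of the 7, 2 were lower in immobilized WT muscle of set 1, 4 in set 2 and 5 in denervated muscle. Of all genes, 14.5%, 17.7% and 27.7% were lower in these comparisons. Txnrd2 in denervated muscle was the only call of these members in the other direction in the 6 comparisons with basal muscle. Their median changed by -0.35, -0.30 and -0.46, beside 0.04, 0.05 and 0.25 over all members and 0.003, -0.021 and -0.027 over all genes.

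In Sesn1SkM-Tg muscle none of the 62 members was called against WT muscle, basal or immobilized, where 0.0292% and 0.0073% of all genes were called. At an unadjusted p under 0.05 there was 1 member in basal and 0 in immobilized muscle, beside 497 and 417 of 13705 genes. No other tool was run. Differences of members ran from -0.36 to 0.37 in basal and from -0.46 to 0.33 in immobilized muscle. For Hmox1 the 95% interval of the difference was -0.67 to 1.01 in basal and -0.80 to 1.14 in immobilized muscle, and for Sod2 it was -0.46 to 0.24 and -0.49 to 0.31. The difference in the immobilization effect from that of WT muscle was called for 0 members and 0 of all genes (0%). An unadjusted p under 0.05 was found for 0 members and for 401 of 13705 genes.

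Sesn2SkM-Tg muscle differed from WT muscle in a few members. In basal muscle 2 were higher and 4 lower, 9.68% of the members beside 2.5% of all genes (1.5% higher and 1% lower). In immobilized muscle 2 were higher and 2 lower, 6.45% beside 2.94% (1.65% higher and 1.29% lower), and after quantile normalization 0 were higher and 2 lower. With the libraries of the compared groups alone, 2 members were called in basal muscle (Gstm5 and Txnip) and 1 in immobilized muscle (Gstm2). The largest difference was that of Gstm5, a mu-class glutathione S-transferase. It read 268, 326, 179.6 and 86.1 in basal Sesn2SkM-Tg libraries and 44.1, 43.8, 38.8 and 58.5 in basal WT libraries. All Sesn2SkM-Tg libraries were higher, but they differed among themselves by almost 4-fold. The log2 difference was 2.04 ± 0.38 (adjusted p = 0.00425).

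After immobilization Gstm5 read 49.6, 176, 171 and 45.6 in Sesn2SkM-Tg and 36.6, 47.6 and 40.1 in WT libraries. In Sesn2SkM-Tg muscle replicates 2 and 3 were high and the other pair lay close to WT levels, so that the groups overlapped, and the difference was not called (1.13 ± 0.41, adjusted p = 0.138). Within Sesn2SkM-Tg muscle it fell by 1.07 ± 0.38 on immobilization (adjusted p = 0.0373), with overlapping groups. That call was lost without basal replicates 1, 2 or 3 or immobilized replicates 1 or 4 (-1.10 to -0.74, adjusted p 0.0602 to 0.156). In the other 9 groups every library lay between 35.7 and 72.7. Of the 30-base stretches of Gstm5, 11.2% occur elsewhere, in the overlapping gene 4933431E20Rik.

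Other mu-class genes beside Gstm5 on chromosome 3 did not share its difference. Gstm2 was lower in basal Sesn2SkM-Tg muscle, at 29.7, 23.8, 14.7 and 18.1 beside 43.4, 35.8, 28.3 and 49.4 in WT libraries (-0.85 ± 0.18, adjusted p = 0.0136, and 0.173 with the compared groups alone). In these groups 1 library of Sesn2SkM-Tg muscle was above the lowest of WT muscle. It was lower by the same amount in immobilized muscle (adjusted p = 0.0254), where the groups did not overlap. Without Sesn2SkM-Tg replicate 3 or WT replicate 1 the basal call was lost (-0.69 and -0.79, adjusted p = 0.0568 and 0.0577), and the immobilized one in 5 of 7 such fits, those without Sesn2SkM-Tg replicates 1 or 2 or any WT replicate (-0.87 to -0.75, adjusted p up to 0.084). Gstm1, Gstm4 and Gstm7 were not called.

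Nqo1 was lower in Sesn2SkM-Tg muscle in both states. It read 13.4, 13.2, 14.1 and 9.84 beside 25.8, 23.01, 18.7 and 18.99 in basal WT libraries, and 18.1, 12.7, 14.6 and 26.3 beside 39.3, 31.99 and 36.3 in immobilized ones. In neither state did the groups overlap. The differences were -0.73 ± 0.17 (adjusted p = 0.0237) and -1.0 ± 0.19 (adjusted p = 0.00703). The Nqo1 call in basal muscle was lost with the compared groups alone and in the fit without WT replicate 1. Keap1 was higher in both states, by 0.49 ± 0.1 (adjusted p = 0.0131) and 0.46 ± 0.11 (adjusted p = 0.0305), with 97.1, 113, 107 and 103 beside 69.6, 69.7, 70.2 and 90.7 in basal libraries, without overlap. The basal call was lost without WT replicates 1 or 2 (0.45 in each fit, adjusted p = 0.0573 and 0.0544), and the immobilized one in 6 of 7 fits, all but that without WT replicate 2 (0.38 to 0.49, adjusted p up to 0.178). With the compared groups alone, the adjusted p of Keap1 was 0.155 in basal and 0.0613 in immobilized muscle, and that of Nqo1 in immobilized muscle was 0.0521. Nfe2l2 differed by 0.08 ± 0.15 and 0.04 ± 0.17 (adjusted p = 0.869 and 0.931).

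In basal muscle Gpx3 and Txnip were also lower in Sesn2SkM-Tg than in WT libraries. Gpx3 read 68.9, 115, 48.2 and 47.2 beside 167, 184, 176 and 129 (-1.30 ± 0.23, adjusted p = 0.00258, and 0.062 with the compared groups alone). Txnip read 429.7, 403, 395 and 346 beside 633, 692, 768 and 986 (-0.95 ± 0.19, adjusted p = 0.00723). The groups did not overlap for either gene. In immobilized muscle neither was called, and Txnl1 was higher, at 111, 146, 119 and 129 beside 86.9, 89.8 and 90.9 without overlap (0.49 ± 0.12, adjusted p = 0.0295). The Txnl1 call was lost in 6 of 7 fits without 1 library, all but that without Sesn2SkM-Tg replicate 1 (0.42 to 0.51, adjusted p up to 0.091), and with the compared groups alone (adjusted p = 0.0613). The immobilization effect of Sesn2SkM-Tg muscle differed from that of WT muscle for 0 members and for 0.0073% of all genes. An unadjusted p under 0.05 was found for 5 members and for 1008 of 13705 genes. Without Sesn2SkM-Tg immobilized replicate 2 the count of members called was 1.

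**Figure D4:**
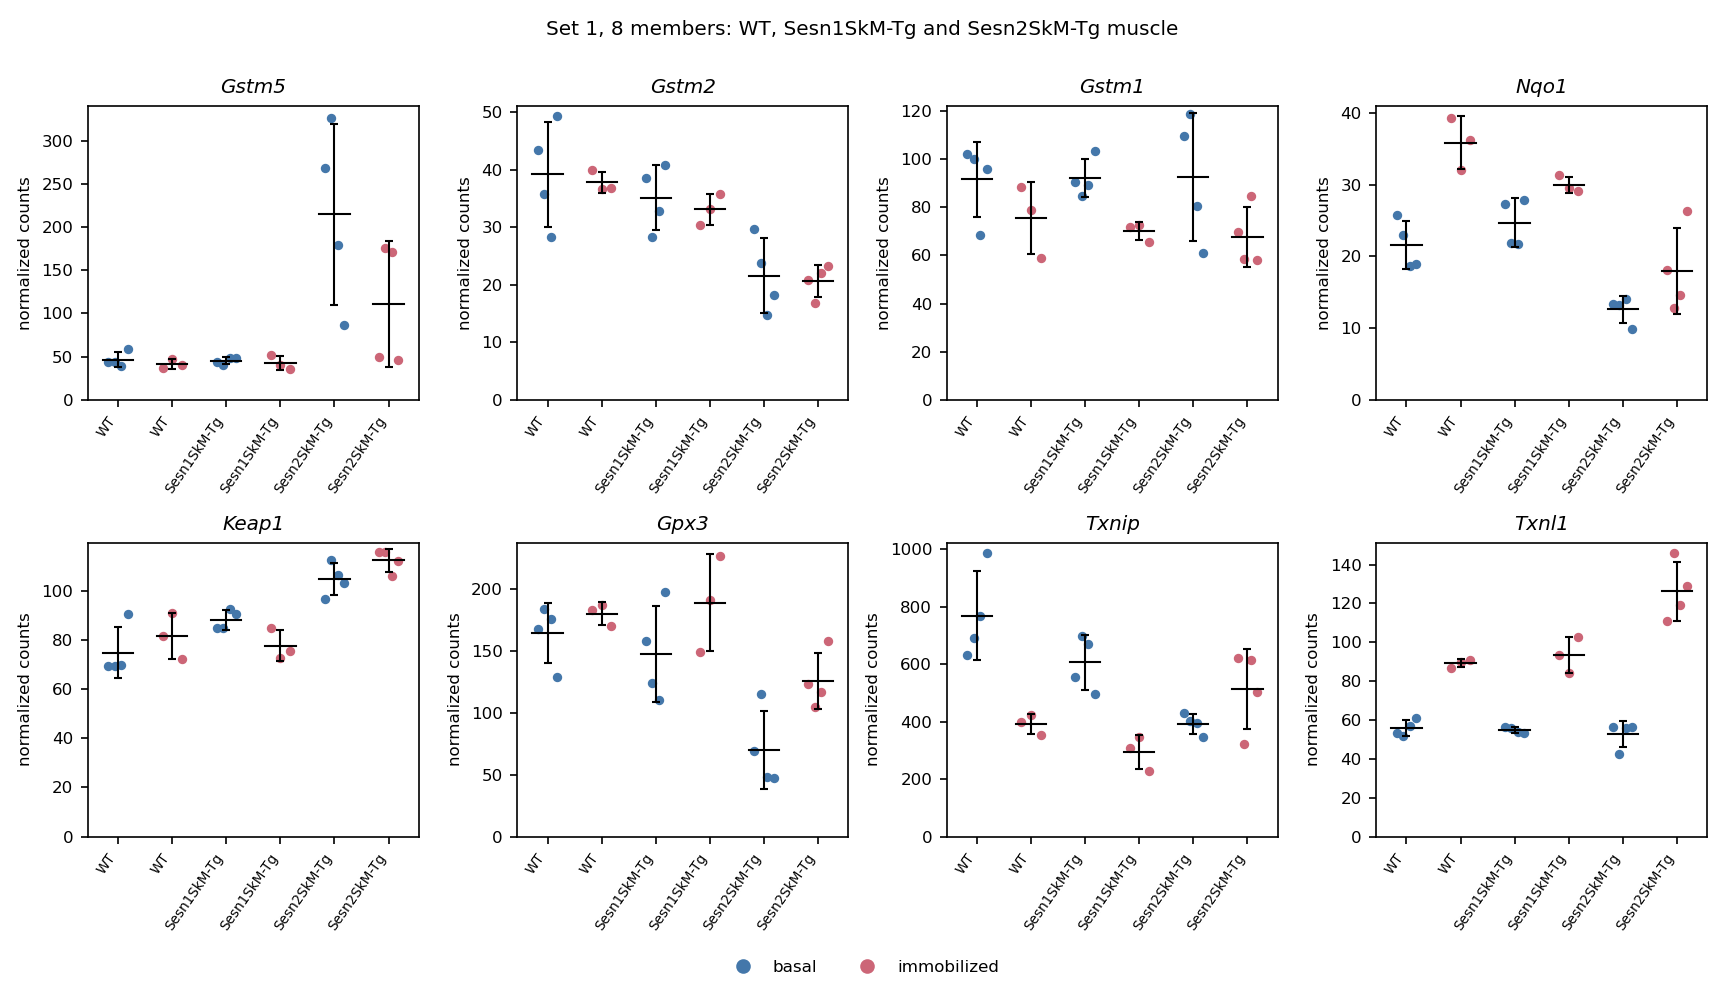
Normalized counts of 8 members in each library of set 1, with 1 point per library, the mean as a horizontal bar and the SD as an error bar, in blue for basal and red for immobilized muscle of WT, Sesn1SkM-Tg and Sesn2SkM-Tg mice. Gstm5 is high in all basal (86.1 to 326) and in part of the immobilized Sesn2SkM-Tg libraries, Gstm2 and Nqo1 are low there, and Sesn1SkM-Tg libraries lie near those of WT muscle.

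Between basal Sesn1KO and WT muscle no member was called by limma, where 0.147% of all genes were called (0.0587% higher and 0.088% lower). An unadjusted p under 0.05 was found for 4 members and for 632 of 13629 genes. With the compared groups alone 1 member was called higher (Txnip). The libraries of 4 members did not overlap, but the share of all genes that separate in this way was not worked out. Txnip read 861, 685, 776 and 605 in Sesn1KO and 287, 357, 405 and 372 in WT libraries, a difference of 1.04 ± 0.3 (adjusted p = 0.574). Gpx8 differed by 0.72 ± 0.22 (adjusted p = 0.704), Glrx5 by 0.24 ± 0.08 (adjusted p = 0.821) and Gpx4 by 0.19 ± 0.09 (adjusted p = 1), all with the higher values in Sesn1KO muscle. After immobilization, where Sesn1 overlapped between the genotypes, 2 members were higher, 3.23% beside 0.947% of all genes, of which 0.528% were higher. Srxn1 read 283, 169, 91.4 and 90.4 in Sesn1KO and 67.1, 52.1, 64.4 and 50.5 in WT muscle. All Sesn1KO libraries were higher, 2 of them near 90 and the others at or above 169. The difference was 1.27 ± 0.24 (adjusted p = 0.0121), and 1.21 (adjusted p = 0.0523) without WT replicate 2. With the compared groups alone neither gene was called (adjusted p = 0.348 for Srxn1 and 0.418 for Prdx6). Prdx6 read 144, 115, 99.4 and 109 beside 81.6, 86.4, 87.4 and 78.8, without overlap. Its difference of 0.46 ± 0.1 (adjusted p = 0.028) was lost without Sesn1KO replicate 1 or WT replicates 1, 2 or 4 (0.36 to 0.48, adjusted p 0.058 to 0.105).

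The immobilization effect itself was not called different between Sesn1KO and WT muscle for any member, where 0.022% of all genes were. An unadjusted p under 0.05 was found for 9 members and for 1087 of 13629 genes. Srxn1 rose by 2.78 ± 0.24 in Sesn1KO and by 1.47 ± 0.24 in WT muscle, a difference of 1.31 with a 95% interval of 0.61 to 2.01 (adjusted p = 0.242). For Nfe2l2 the difference was 0.48 with an interval of 0.15 to 0.82 (adjusted p = 0.431), and for Hmox1 it was -0.09 with an interval of -1.14 to 0.96. Nfe2l2 in immobilized Sesn1KO muscle read 54.9, 70.7, 54.8 and 55.3 against 40.1, 42.5, 55.2 and 43.2 in WT muscle (0.38 ± 0.11, adjusted p = 0.119), and was called without WT replicate 3 (0.47, adjusted p = 0.0476).

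Of 41 other genes of the pathway, which cover glutathione breakdown, NADPH sources, iron and heme handling and partners of NRF2, 40 were tested and Mgst2 was not analysed here. In WT muscle, immobilization called 7 higher and 6 lower in set 1 and 7 and 12 in set 2, and denervation called 14 and 11. These are 32.5%, 47.5% and 62.5% of them, beside 29.3%, 33.9% and 55.5% of all genes. Their medians were -0.02, -0.11 and -0.03. Ftl1, the ferritin light chain, had the largest rise in set 1 (1.46 ± 0.24, adjusted p = 0.00021) and after denervation (1.80 ± 0.13, adjusted p = 2.2e-10), where basal libraries read 95.8 to 142 and denervated ones 387 to 430.4. In immobilized muscle of set 2 the largest rise was that of Mafk, a small MAF partner of NRF2 (1.43 ± 0.17, adjusted p = 1.5e-06). Idh2, the mitochondrial NADP-dependent isocitrate dehydrogenase, had the largest fall in each, by 1.40 ± 0.42 in set 1, 1.55 ± 0.2 in set 2 and 2.39 ± 0.2 after denervation (adjusted p = 0.0172, 6.9e-06 and 3.4e-09).

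Nnt, the transhydrogenase that makes NADPH in mitochondria, separated 2 of the genotypes from their controls. It was named after its values were seen. In basal muscle it read 72.8, 96.3, 90.3 and 92.6 in Sesn1KO beside 23.1, 24.1, 21.1 and 13.7 in WT libraries (2.07 ± 0.15, adjusted p = 4e-08), and 80.7, 77.5, 80.3 and 82.1 in Sesn2SkM-Tg beside 18.8, 20.2, 26.7 and 47.4 in WT libraries (1.57 ± 0.29, adjusted p = 0.00365). In neither pair did the groups overlap. In immobilized muscle the differences were 1.89 ± 0.15 and 1.41 ± 0.31 (adjusted p = 1.6e-07 and 0.0181). In Sesn1SkM-Tg muscle it was not called (-0.35 ± 0.29 and -0.15 ± 0.33). C57BL/6J mice are known to carry a deletion within Nnt, and all samples are labelled with that strain. For Sesn1KO and Sesn2SkM-Tg muscle, effects of the altered sestrin and of any other difference between the mouse lines cannot be told apart, which bears on every member called between these genotypes above: Gstm5, Gstm2, Nqo1, Keap1, Gpx3, Txnip, Txnl1, Srxn1 and Prdx6.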

How the data were processed

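RNA was sequenced from the TA muscle of 42 mouse samples in 11 groups and 2 sets. The authors deposited a single table of 13809 genes holding normalized counts, a linear signal whose scale is close to CPM, and read counts were not used here. Per the study's methods and the submitters' processing notes, reads were checked with FastQC, trimmed with cutadapt 1.7.1 and quantified with RSEM 1.2.20 against GRCm38 and Ensembl release 76, and counts were normalized with limma, with edgeR also named. No value in the table is 0, and depth is unknown, so no counting intervals were given. Such processing can move low values most.

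Groups came from the sample labels, and comparisons were made within a set. The filter asked for a value of at least 1 in 1 or more libraries and left 13705 genes to test in set 1 and 13629 in set 2. limma 3.58.1 in R 4.3.3 was fitted to log2(value + 1) with a coefficient per group and a trended variance over all groups of the set, and tests were two-sided with Benjamini-Hochberg adjustment. Calls needed an adjusted p under 0.05 together with a log2 fold change of 0.25 or more in size. The script was tested on simulated data. The 62 members and the other gene lists were chosen with earlier results of these data known. Genes were named as follows: Hmox1, Gstm5, Nfe2l2 and Keap1; the called members with the largest changes, up to 3 in each direction per comparison; the 3 with the highest levels per kb; and the most changed of each role. Others were named for their role. Of the 13809 genes, 13715 were matched to GENCODE M21 for exon length and for shared stretches of 30 bases, and promoters came from RefSeq. Python 3.11.15, pandas 2.3.3 and matplotlib 3.10.9 were used.

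Alternatives were no filter, a filter of 3 libraries, a pseudocount of 0.1, quantile normalization, median centring, no variance trend, the compared groups alone, the replicate number as a block, no fold threshold, and leaving out each library in turn. Replicate numbers did not pair the samples.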

Additional observations from a re-analysis of the deposited data

Results flagged for a closer look

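In 15 of 252 groups of 4 libraries examined over the named members, 1 library lay far from the other libraries of its group, with a gap above Dixon's critical value. Chance gives about 1 in 20 groups.

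In some groups the library was high. Glrx in WT immobilized set 2 replicate 1 read 29.85, above the others at 27.41 to 27.68. Gsr in Sesn1KO basal set 2 replicate 2 read 21.34, above the others at 19.91 to 20.1. Gstm1 in WT denervated set 2 replicate 1 read 129.9, above the others at 119.9 to 120.5. Hmox1 in Sesn2SkM-Tg basal set 1 replicate 4 read 11.09, above the others at 4.582 to 4.914. Keap1 in WT basal set 1 replicate 4 read 90.66, above the others at 69.63 to 70.16. Msrb1 in Sesn2SkM-Tg immobilized set 1 replicate 4 read 75.42, above the others at 61.91 to 64.01. Nfe2l2 in Sesn1KO immobilized set 2 replicate 2 read 70.74, above the others at 54.83 to 55.3. Nqo1 in WT basal set 2 replicate 4 read 20.39, above the others at 14.1 to 14.87. Prdx3 in WT basal set 1 replicate 4 read 232.1, above the others at 170.5 to 176.4. Txn1 in WT immobilized set 2 replicate 2 read 60.02, above the others at 53.39 to 54.17.

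In the others it was low. Gpx3 in WT denervated set 2 replicate 3 read 116.7, below the others at 143.3 to 146.6. Gpx4 in Sesn1SkM-Tg basal set 1 replicate 2 read 219.1, below the others at 251.4 to 255.7. Gstm1 in WT basal set 1 replicate 3 read 68.32, below the others at 95.76 to 102.1. Srxn1 in WT denervated set 2 replicate 1 read 135.8, below the others at 169.3 to 171.3. Txnl1 in Sesn2SkM-Tg basal set 1 replicate 2 read 42.63, below the others at 56.07 to 56.29.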

How the results depend on the processing

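Changes of sign were counted for 114 values of named genes alone. Among these, no called value changed sign under any alternative, and 21 values changed sign, none of them called in either fit. The signs turned mostly when 1 library was left out, and the cause was not tested. For Hmox1 the ranges without 1 library were -0.30 to 0.67 (Sesn1SkM-Tg against WT, immobilized), -0.47 to 0.50 (Sesn1SkM-Tg effect minus WT effect, -0.00 reported and 0.07 after quantile normalization), -0.00 to 0.37 (Sesn2SkM-Tg against WT, basal), -0.79 to 0.16 (Sesn1KO against WT, immobilized) and -0.62 to 0.33 (Sesn1KO effect minus WT effect). For Nfe2l2 they were -0.28 to 0.16 (Sesn1SkM-Tg against WT, immobilized), -0.10 to 0.34 (Sesn1SkM-Tg effect), -0.01 to 0.18, -0.17 to 0.27 and -0.25 to 0.19 (Sesn2SkM-Tg against WT, basal and immobilized, and effect). For Keap1 they were -0.05 to 0.04 (Sesn1KO against WT, basal), -0.15 to 0.02 (Sesn1SkM-Tg against WT, immobilized) and -0.12 to 0.06 (Sesn2SkM-Tg effect). For Gstm5 they were -0.10 to 0.09, -0.11 to 0.14 and -0.09 to 0.17 (Sesn1SkM-Tg against WT, basal and immobilized, and effect), -0.09 to 0.13 and -0.23 to 0.01 (Sesn1KO against WT, immobilized, and effect), and on immobilization -0.24 to 0.02 in Sesn1SkM-Tg (0.02 after quantile normalization), -0.05 to 0.19 in WT muscle of set 2 and -0.09 to 0.01 in Sesn1KO muscle (0.01 after median centring). Median centring gave -0.00 for Sesn1SkM-Tg against WT immobilized muscle.

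The member counts for immobilization or denervation against basal muscle stayed within 1.5 times of those reported under every alternative, with ranges without 1 library of 17 to 22 (WT, set 1), 16 to 23 (Sesn1SkM-Tg), 15 to 23 (Sesn2SkM-Tg), 19 to 24 (WT, set 2), 26 to 33 (Sesn1KO) and 36 to 39 (denervated).

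The small counts between genotypes moved more, and the cause was not tested unless fewer samples entered the fit. With the compared groups alone, Sesn2SkM-Tg against WT muscle gave 2 members in basal (6 reported) and 1 in immobilized muscle (4 reported), and Sesn1KO against WT muscle gave 1 in basal (0 reported) and 0 in immobilized muscle (2 reported). After quantile normalization the immobilized counts were 2 for Sesn2SkM-Tg and 1 for Sesn1KO muscle. Without 1 library, Sesn2SkM-Tg against WT gave 3 to 10 in basal (3 without WT replicate 1, 10 without WT replicate 4) and 1 to 2 in immobilized muscle (1 without WT replicates 1 or 3, and 2 without any other library). Sesn1KO against WT immobilized muscle gave 0 to 5 (0 without WT replicate 2, 1 without Sesn1KO replicate 1 or WT replicates 1 or 4, 5 without Sesn1KO replicate 3). The difference in effect between Sesn2SkM-Tg and WT muscle gave 0 to 1, with 1 without Sesn2SkM-Tg immobilized replicate 2.

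Same-numbered libraries did not deviate together (mean r = 0.01 over 51 pairs of set 1, of which 18 were over 0.1, and -0.02 over 40 pairs of set 2, of which 6 were), and 7 of 22 and 4 of 20 libraries correlated best with their own number. With the replicate block, Sesn2SkM-Tg against WT immobilized muscle gave 2 members, and Keap1 (0.44, limma adjusted p = 0.064) and Txnl1 (0.47, 0.0616) there and Prdx3 in immobilized WT muscle of set 1 (-0.32, 0.0633) were no longer called. No other call of a named gene changed under the block.

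Among the values of named genes, calls were lost for 11 with the compared groups alone (limma adjusted p 0.0521 to 0.418), among them Gstm5 in immobilized Sesn2SkM-Tg (0.149), Hmox1 in immobilized Sesn1KO (0.162) and Prdx3 in immobilized WT muscle of set 1 (0.117), 7 after quantile normalization (4 gained) and 4 without the variance trend. Median centring lost 1 and gained 1, and the filter of 3 libraries and the pseudocount of 0.1 each gained 1. Depth is unknown, so its limit on low genes such as Gsta1 and Gsta3 could not be given.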
